A study of Mus musculus with 4 samples.

Results

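The contractile genes of mammary myoepithelial cells were followed across 4 microarrays of mouse mammary gland cells taken after transplantation. The set was Acta2, Actg2, Myh11, Mylk, Cnn1, Tagln and Oxtr, and a gene was measured where the array annotation gave a probe set that gene alone. By that rule 6 of the 7 genes were measured, of 17097 genes in all, each through the brightest of its probe sets, by the mean over the 4 arrays. Tagln was not measured, because its probe set is annotated to Pcsk7 as well, and no value was taken from it.

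The study concerns collagen signalling, matrix stiffness and multipotency in glandular epithelial stem cells. One group, here BC alone, had received 10000 BC cells, which the labels call the multipotent condition. The control group had received a mixture of 8000 LC and 2000 BC cells, called the unipotent control. Sorting took place 3 days after transplantation, and RNA of 50 sorted cells went onto each array. The labels do not spell out BC and LC, which in this field usually stand for basal and luminal cells. They give no strain, age, host, animal number or sorting gate, so it is not stated whether sorted control cells included LC cells. Each group had 2 arrays, and since nothing ties the arrays to separate animals, p-values reflect a spread that may be technical. The number of arrays limits the precision.

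Myoepithelial cells form the basal layer of the mammary epithelium and squeeze milk out of the alveoli during lactation. Oxytocin binds its receptor, Oxtr, a receptor coupled to calcium release. Calcium-loaded calmodulin then activates myosin light chain kinase, the product of Mylk, which phosphorylates the regulatory light chain of myosin. Smooth muscle myosin, whose heavy chain is encoded by Myh11, pulls on filaments of the smooth muscle actins encoded by Acta2 and Actg2, and calponin (Cnn1) and transgelin (Tagln) bind those filaments. These genes are shared with the smooth muscle of blood vessels, and many of them are classical targets of serum response factor (SRF), which binds the CArG box.

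The promoter table from RefSeq, on build GRCm38.p6, held Acta2, Cnn1, Mylk and Oxtr, which is 4 of the 7 genes. The 250 bases before 1 annotated transcript start of each gene were searched for the CArG box, for a CArG box with 1 C or G among its central bases, and for CATTCC, the core of the element bound by TEAD factors, on both strands. Sites are shown for Acta2 and Mylk because their promoters held a match. That of Cnn1, whose values went with theirs below, held none. Each site is a 30-base window written 5′ to 3′ on the gene's strand, with the matching bases in capitals.
Acta2, CArG box with 1 C in the centre: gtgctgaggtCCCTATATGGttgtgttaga
Acta2, CArG box with 1 G in the centre: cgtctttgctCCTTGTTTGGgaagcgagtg
Acta2, CATTCC on the opposite strand: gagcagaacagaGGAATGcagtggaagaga
Mylk, CATTCC: tgcagttcagaaCATTCCctggtacgtgca

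The Acta2 windows lie on the minus strand at chr19:34255438-34255467, chr19:34255388-34255417 and chr19:34255502-34255531. Counted from the annotated start, the matches cover bases -84 to -75, -34 to -25 and -146 to -141. The Mylk window lies on the plus strand at chr16:34784780-34784809, with its match at bases -158 to -153. None of the 4 searched promoters held a CArG box without a C or G in the centre, which 1.47% of all 32851 promoter windows of that length held. A CArG box with 1 C or G in the centre was present in 7.24% of them, at least 2 boxes of either kind in 0.67%, and CATTCC in 12.6%. The windows of Cnn1 and Oxtr held none of these motifs. A single start per gene was searched and no intron, and a match is a description of letters, not a binding site.

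Control replicate 2 stood apart from the other 3 arrays over all probe sets. Its values had an SD of 1.44, against 1.90 to 1.92 elsewhere, and over 45141 probe sets, which are not replicates, Pearson's r with the others was 0.9152 to 0.919, where those 3 had 0.9685 to 0.9725 among themselves. Of all 17097 genes, 12.1% lay at least 2-fold below the lowest of the other 3 arrays on control replicate 2, and 2.29% lay at least 2-fold above the highest. Results on the contractile genes are therefore also given without that array. Shares of all genes, here and below, cover genes of every level, and a dim gene has less room to fall than a bright one. Where 4 values follow a gene, they stand in the order BC alone 1, BC alone 2, control 1, control 2.

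Acta2, smooth muscle alpha-actin, was at a similar level on 3 arrays and far lower on control replicate 2. Its log2 value was 10.68 and 10.29 on the BC alone arrays, 10.58 on control replicate 1 and 6.84 on control replicate 2. Control replicate 1 lay between the BC alone arrays, so the groups overlapped, and the control arrays were 3.74 apart on the log2 scale, or 13.4-fold. Within each array the same probe set lay at the 99.2th, 98.7th and 99.1th percentile of all probe sets on the first 3 arrays and at the 90.1th on control replicate 2. The suffix of this probe set marks it as one that can bind transcripts of several similar genes, and the part of other actins in its signal was not tested.

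Actg2, smooth muscle gamma-actin, had log2 values of 6.2, 5.93, 6.42 and 4.02. It was highest on control replicate 1 and lowest on control replicate 2, with both BC alone arrays between them. The control arrays were 2.40 apart. On control replicate 2 Actg2 lay at the 33.3th percentile, below that array's median of 4.62, and without a detection call its level there is not shown to be above background, so the distance may be understated.

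Myh11, the smooth muscle myosin heavy chain, was the only member whose groups did not overlap. BC alone gave log2 values of 10.29 and 9.86, control replicate 1 gave 9.79 and control replicate 2 gave 5.68. The lower BC alone array exceeded control replicate 1 by less than the BC alone arrays differed from each other, which was 0.43. The control arrays were 4.11 apart, or 17.3-fold, the largest distance among the members, and only 6 of the 17097 genes, Myh11 included, lay as far or farther below control replicate 1 on control replicate 2.

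Mylk, the kinase that starts contraction, had log2 values of 9.73, 9.47, 9.74 and 5.69. Control replicate 1 was level with the higher BC alone array, and the first 3 arrays spanned 0.27 in all, the narrowest span of any member. On control replicate 2 Mylk lay 4.05 lower than on control replicate 1, or 16.6-fold.

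Cnn1, calponin, which binds actin and restrains the myosin motor, was the member that varied most within BC alone. BC alone gave log2 values of 8.11 and 6.79, and the control 8.15 and 4.76. The BC alone arrays were 1.32 apart, a gap that 2.22% of all genes reached or exceeded, whereas the gaps of the other members, from 0.26 to 0.43, were reached by 26.3% to 41.6%. Even the lower BC alone array lay 2.03 above control replicate 2. On control replicate 2 Cnn1 lay at the 53.6th percentile, near that array's median of 4.62. Without a detection call its level there is not shown to be above background, so the distance may be understated.

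Oxtr, the oxytocin receptor, had different patterns on its 2 probe sets, which were almost equally bright. The brightest probe set had log2 values of 5.16 and 5.54 in BC alone, 5.98 and 5.40 in the control. On that set control replicate 2 lay between the BC alone arrays, and 28.2% of all genes lay as far or farther below control replicate 1 there. With these values 5 of the 6 members had their lowest value on control replicate 2 by at least 2-fold, against 12.1% of all genes, and 4 of them by at least 4-fold, against 1.56%. These shares are not matched for level. The median on control replicate 1 was 8.945 for the members and 4.95 for all genes. The part of level, and of the narrower spread on control replicate 2, in these counts was not tested.

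**Figure D1:**
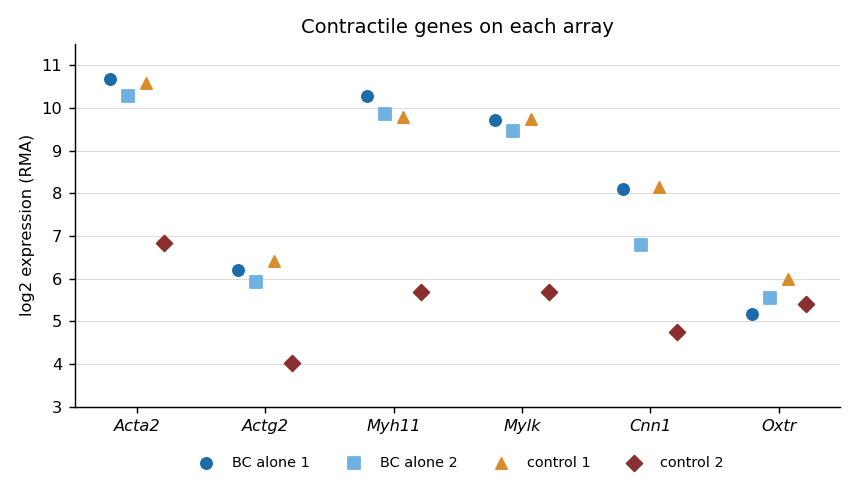
Log2 expression (RMA) of the 6 measured contractile genes, 1 symbol per array: circles and squares are the BC alone replicates, triangles and diamonds control replicates 1 and 2. Acta2, Actg2, Myh11, Mylk and Cnn1 lie lowest on control replicate 2, at 4.02 to 6.84, while the brightest probe set of Oxtr lies between 5.16 and 5.98 on all arrays.

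Other probe sets of the same genes did not all repeat the brightest one. The members had 11 probe sets in all that are annotated to a single gene. The 3 probe sets of Mylk went together, with 7.75, 7.60, 7.79 and 4.78 for one dimmer set and 8.48, 7.95, 8.32 and 4.10 for the other. On control replicate 2 they were 3.01 and 4.22 below control replicate 1.

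The dimmer sets of Acta2 and Myh11 showed no such distance. The dimmer Acta2 set had 3.88, 5.60, 3.81 and 4.66, so that control replicate 2 lay 0.85 above control replicate 1, and the dimmer Myh11 set had 5.73, 4.87, 5.01 and 5.09. Both lay within the middle of their arrays, between the 36.4th and 71.2th percentile, and no detection call accompanies the values.

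For Oxtr the choice of probe set turned on a mean of 5.520 against 5.515. The other set had 6.09, 4.89, 7.18 and 3.90. On that set Oxtr was highest on control replicate 1 and lowest on control replicate 2, 3.28 apart, which is the order that Actg2 had. Control replicate 2 was 0.99 below the lower BC alone array, just short of 2-fold, and lay at the 29.7th percentile there, below the array median. The BC alone mean lay 1.69 below control replicate 1 on it, against 0.63 below on the brightest set.

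**Figure D2:**
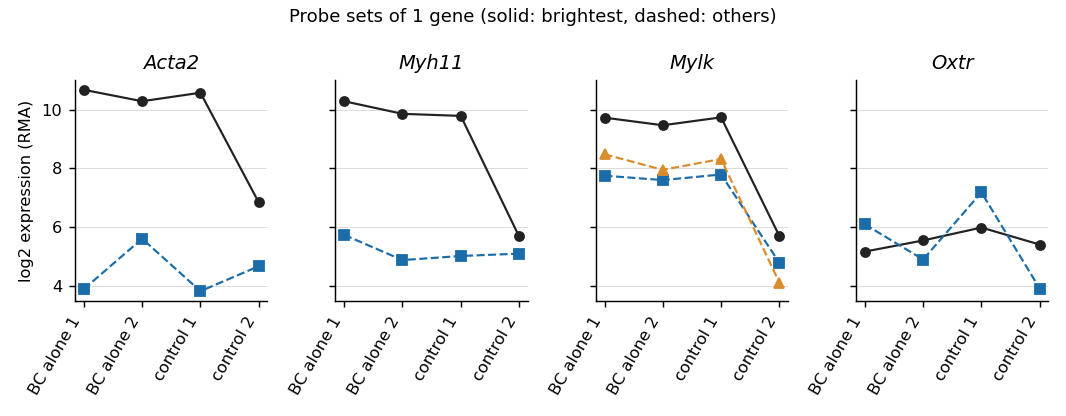
Log2 expression (RMA) of every single-gene probe set of Acta2, Myh11, Mylk and Oxtr on the 4 arrays; lines join the values of 1 probe set, solid for the brightest and dashed for the others. All 3 Mylk sets are lowest on control replicate 2, at 4.10 to 5.69, the dimmer sets of Acta2 and Myh11 are not, and the 2 Oxtr sets differ most on the control arrays.

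Setting BC alone against the mixture asks whether contractile genes differ between the multipotent and the unipotent transplant. LC cells were absent from the one, and fewer BC cells went into the other, and the roles of these cannot be told apart. The mean was higher in BC alone for 5 of the 6 members, against 46.7% of all genes, and lower for Oxtr. The median log2 difference of the members was 1.385, where the median of all genes was -0.04. After cyclic loess the median of the members was 0.875.

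Myh11 averaged 10.075 ± 0.30 over the BC alone arrays and 7.735 ± 2.91 over the control arrays (SD, n = 2), a difference of 2.34 ± 1.28 (SE) with a 95% interval from -0.86 to 5.54. Mylk differed by 1.885 ± 1.26 and Acta2 by 1.775 ± 1.17. For Cnn1 and Actg2 the differences were 0.995 ± 1.13 and 0.845 ± 0.78, and for Oxtr -0.34 ± 0.36. All 6 intervals included 0, and the control SD of the first 5 genes was 1.70 to 2.91, against 0.18 to 0.93 in BC alone. After cyclic loess the differences were 1.6 for Myh11, 1.17 for Mylk, 0.96 for Acta2 and 0.57 for Cnn1. When probe sets were averaged per gene they were 1.295 for Myh11 and 1.14 for Acta2.

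In limma 0 of the 6 members passed an adjusted p of 0.05, and 0.0% of all genes did. Their adjusted p was 0.842 or 0.843 in limma, and at an unadjusted p under 0.05 there were also 0 members, against 3.98% of all genes. Myh11 alone was at least 2-fold different without overlap, where 5.68% of all genes were, 4.78% higher and 0.895% lower in BC alone. That count was 2 without BC alone replicate 2, 5 without control replicate 1 and 0 without control replicate 2. With the mean of probe sets it was also 1, but the gene was Acta2, as the groups of Myh11 then overlapped. With 2 arrays a group, the smallest p of an exact permutation test, two-sided, is 0.333.

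Against control replicate 1 alone, none of the members was 2-fold different, and the direction of Acta2, Actg2, Mylk and Cnn1 turned. The BC alone mean lay below control replicate 1 by 0.095 for Acta2, 0.14 for Mylk, 0.355 for Actg2, 0.63 for Oxtr and 0.70 for Cnn1, and above it by 0.285 for Myh11. That is a lower mean for 5 of 6 members, and for 48.8% of all genes. The count at least 2-fold apart and on 1 side was 0 of 6, with 4.29% of all genes called. Both BC alone arrays were below control replicate 1 for Actg2, Mylk, Cnn1 and Oxtr, as for 33.8% of all genes. The median difference of the members without control replicate 2 was -0.25, and without control replicate 1 it was 3.17. Without control replicate 1 the differences were 4.395 for Myh11, 3.91 for Mylk, 3.645 for Acta2, 2.69 for Cnn1, 2.045 for Actg2 and -0.05 for Oxtr. In limma fits on 3 arrays the lone control array is assumed to vary like the BC alone arrays, so p-values of the members from those fits are not given.

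**Figure D3:**
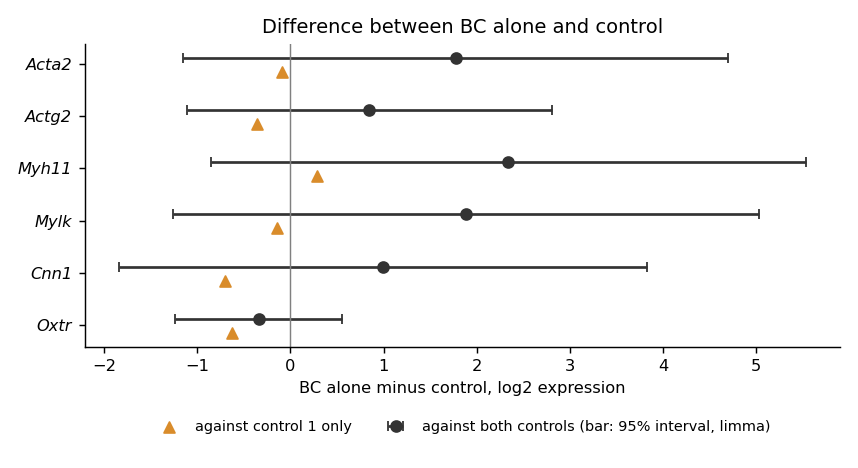
Difference in log2 expression between BC alone and control for the 6 members. Circles with bars are the difference against both control arrays with its 95% interval from limma, and triangles the BC alone mean minus control replicate 1; every interval includes 0, and the triangles lie between -0.70 and 0.285.

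The distance between the control arrays depended in size, but not in direction, on the scaling. For Acta2 control replicate 2 lay 3.74 below control replicate 1 on the deposited scale, 2.67 below after another quantile normalization, 3.89 after median centring and 2.16 after cyclic loess. For Myh11 the same distances were 4.11, 3.62, 4.26 and 2.69. For Oxtr they were 0.58, 0.535, 0.73 and 0.59. Against control replicate 1 no member's direction in BC alone differed between these 4 scalings.

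Set against basal keratins of the same array, the members shifted by different amounts. Basal keratin was taken as the mean log2 value of Krt5 and Krt14, and each member's log2 difference from it was followed between the control arrays. From control replicate 1 to control replicate 2 that difference shifted by -0.065 for Acta2, -0.375 for Mylk, -0.435 for Myh11 and 0.285 for Cnn1, so on their brightest probe sets these 4 genes went with the keratins to within 0.435. Cnn1 lay near the median of control replicate 2, and its level there is not shown to be above background. The difference from the keratins shifted by 1.275 for Actg2, which lay below that median. For Oxtr the shift was 3.095 on the brightest probe set and 0.395 on the other, so its shift depended on the choice between nearly equal sets. The dimmer sets of Mylk shifted by 0.665 and -0.545, and those of Acta2 and Myh11 by 4.525 and 3.755.

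The other genes of the contractile machinery were described from lists of the pathway. Among thin filament and actin-binding genes 14 of 16 were measured, and 13 of the 14 had a higher mean in BC alone, against 46.7% of all genes. The median log2 difference of the 14 was 1.04. None passed the limma threshold, and at least 2-fold without overlap there was 1 higher gene, Flna, against 4.78% of all genes, and 1 lower gene, Synm, against 0.895%. The difference of Flna was 1.105, but 0.372 after quantile normalization, 0.23 after cyclic loess and 0.135 against control replicate 1 alone, under 2-fold in each case. Caldesmon (Cald1), which blocks myosin from actin, had 9.46, 8.98, 9.0 and 5.49. Tpm2, a tropomyosin, had 9.85, 9.16, 9.57 and 6.31, and Csrp1, an actin-associated LIM protein, had 11.17, 11.08, 11.09 and 8.76. Flna, a filamin that crosslinks actin, had 10.77, 10.58, 10.54 and 8.60. Control replicate 2 was the array that lay apart for these genes, and for 10 of the 14 it was at least 2-fold below the other 3, against 12.1% of all genes. Lmod1, a leiomodin, had 4.87, 5.07, 4.94 and 4.43. Synm, the intermediate filament protein synemin, had 4.13, 4.51, 5.61 and 5.07, a difference of -1.02 ± 0.35 (SE). It was -0.655 with the mean of probe sets, -0.892 after quantile normalization, -0.955 after median centring and -0.887 after cyclic loess, under 2-fold in each case. Against control replicate 1 alone it was -1.29. Its BC alone values lay around the medians of those arrays, 4.38 and 4.37. Against control replicate 1 alone the median of the list was -0.03, against control replicate 2 alone 2.11, after quantile normalization 0.43 and after cyclic loess 0.35.

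The regulatory light chain Myl9, the substrate of Mylk, had a wider distance between the control arrays than any member. It had 10, 9.61, 9.91 and 5.36, the control arrays being 23.4-fold apart. Myl12a, a regulatory light chain of non-muscle myosin, had 9.73, 9.60, 9.73 and 7.44, and Myh10, a non-muscle heavy chain, 7.73, 7.80, 7.17 and 6.25. Mylk2, the skeletal muscle paralog of Mylk, was highest on control replicate 2, with 5.27, 5.39, 5.43 and 6.44. Of 9 measured myosin genes and kinases, of 12 listed, 5 had a higher mean in BC alone, against 46.7% of all genes. The median difference of the 9 was 0.41, or -0.065 against control replicate 1 and 0.835 against control replicate 2. That median was 0.01 after quantile normalization and -0.02 after cyclic loess. None passed the limma threshold, and 1, Myh10, was at least 2-fold higher without overlap, against 4.78% of all genes. Its difference of 1.055 was 0.672 after quantile normalization, 0.562 after cyclic loess and 0.595 against control replicate 1 alone.

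Of the 4 actins outside smooth muscle, 2 were bright on all arrays and 2 were dim. Actb, cytoplasmic beta-actin, had 12.57, 12.55, 12.50 and 12.05, and Actg1, cytoplasmic gamma-actin, 11.35, 11.31, 11.27 and 10.11. From control replicate 1 to control replicate 2 the difference was -0.45 for Actb and -1.16, more than 2-fold, for Actg1. Both had a higher mean in BC alone by 0.285 and 0.64, and the sign turned for both under cyclic loess, to -0.76 and -0.315. Acta1 and Actc1, the skeletal and cardiac actins, lay between 3.09 and 3.81 on all arrays, below the array medians of 4.37 to 4.62, where a lower level may not show, and differed by 0.025 and -0.05. The sign of Actc1 turned under all 3 other scalings. All 4 listed genes were measured, and none passed the limma threshold.

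Genes that carry the signal to the myosin light chain were measured for 23 of 26 listed. Of these, 19 had a higher mean in BC alone, against 46.7% of all genes. The median difference of the 23 was 0.555. Atp2a2, the calcium pump of the sarcoplasmic reticulum, had 8.91, 8.74, 8.29 and 6.31, and was the 1 gene at least 2-fold higher without overlap, against 4.78% of all genes. Its difference was 1.525, but 0.425 with the mean of probe sets, 0.884 after cyclic loess and 0.535 against control replicate 1 alone, under 2-fold in each case. Gna11, a G protein subunit that couples to receptors of the oxytocin type, had 9.0, 8.65, 8.28 and 7.48. Orai1, a calcium entry channel, had 7.20, 7.27, 6.66 and 6.23, and Prkca, protein kinase C alpha, 8.38, 7.97, 7.75 and 7.13. For these 4 genes both control arrays were below both BC alone arrays, as was so for 8 of the 23 and for 16.8% of all genes. The median was 0.18 against control replicate 1, 0.21 after quantile normalization and 0.14 after cyclic loess, 1.005 without control replicate 1, and none of the 23 passed the limma threshold.

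Among SRF and its partners, 10 of 12 listed genes were measured and 7 had a higher mean in BC alone, against 46.7% of all genes. The median difference of the 10 was 0.58. Srf had 9.29, 9.44, 8.72 and 7.94, a difference of 1.035 ± 0.38 (SE), and the LIM protein gene Fhl1 had 6.24, 6.38, 5.21 and 4.27, a difference of 1.57 ± 0.41. These were the 2 genes of the list at least 2-fold higher without overlap, against 4.78% of all genes, and against control replicate 1 alone they differed by 0.645 and 1.10. The difference of Srf was 0.264 after quantile normalization, 0.301 after cyclic loess and 0.703 with the mean of probe sets. That of Fhl1 was 1.565 and 1.549 under the same scalings and 0.695 with the mean of probe sets. Fhl2 and Gata6 had differences of 0.59 ± 0.34 and 0.57 ± 0.37. Gata6 had 3.90, 4.65, 3.70 and 3.71, below the array median except on BC alone replicate 2. Mrtfa, an actin-regulated coactivator of SRF, had 8.64, 8.12, 8.51 and 6.86, close in order to the members. Myocd, the coactivator known for smooth muscle, lay between 3.28 and 3.86 on all arrays, below the array medians, and was highest on control replicate 2. The median of the list was 0.065 against control replicate 1, 0.15 after quantile normalization and 0.10 after cyclic loess, and none of its genes passed the limma threshold.

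**Figure D4:**
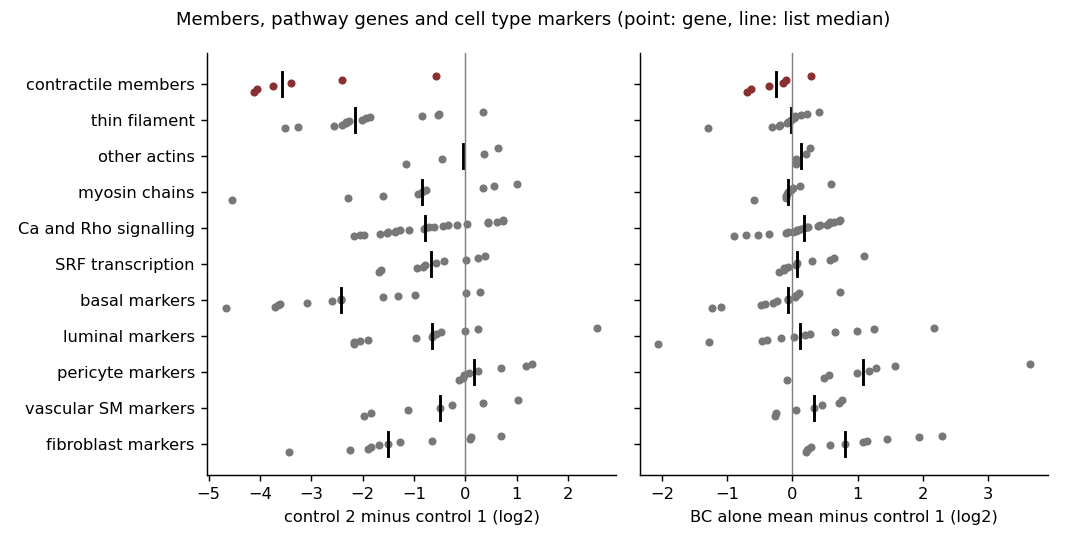
Log2 differences of single genes (points) with list medians (bars), for the contractile members, pathway lists and cell type markers; the left panel is control replicate 2 minus control replicate 1, the right panel the BC alone mean minus control replicate 1. The members' median is -3.565 on the left and -0.25 on the right; basal markers lie at -2.43 and -0.06, and pericyte markers at 0.16 and 1.08.

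Most markers of basal cells went with the members. Krt5 had 10.47, 10.22, 10.76 and 7.12, Krt14 had 10.23, 9.80, 10.49 and 6.78, and Trp63, the basal transcription factor p63, 8.74, 8.76, 8.81 and 5.20. These 3 basal markers were thus high on 3 arrays and low on control replicate 2. Of 13 measured basal markers, 9 were at least 2-fold below the other arrays on control replicate 2, against 12.1% of all genes. Egfr and Snai2 lay 0.98 and 0.18 below the lowest of the other arrays there, and Krt15 and Vsnl1 were highest there. The summed linear signal of the 13 was 5392 to 5861 in BC alone, and 6515 and 916 on control replicates 1 and 2. That of the 6 contractile genes was 3109 to 4127, 3704 and 303. In RNA from sorted cells, fewer cells of a type and less RNA per cell cannot be told apart. Nor can either be told apart here from the narrower spread of all values on control replicate 2.

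Luminal markers were mixed, with 2 of the 12 measured at least 2-fold below the other arrays on control replicate 2 and 1 at least 2-fold above them, against 12.1% and 2.29% of all genes. The 3 brightest, the keratins Krt8, Krt18 and Krt19 had 8.0, 7.78 and 7.54 there, against 10.16, 9.67 and 8.51 on control replicate 1. Foxa1, a transcription factor of hormone-sensing luminal cells, had 5.42, 4.21, 4.79 and 7.36, highest on control replicate 2. Esr1, the oestrogen receptor, had 8.13, 9.19, 6.48 and 6.72, and Prom1 had 8.26, 6.40, 6.07 and 6.07, both level between the control arrays to within 0.24. At least 2-fold higher in BC alone without overlap were 4 of the 12 luminal and 2 of the 13 basal markers, against 4.78% of all genes. At least 2-fold apart from control replicate 1 alone were 4 luminal and 2 basal markers, against 4.29%. The summed signal of 12 measured luminal markers was 3317 to 4013 in BC alone, 3328 on the first control array and 1312 on the second. Over all genes it was 2334449 to 2334485 in BC alone, 2282630 on the first control array and 1214467 on the second, and the part of this in the members' values was not tested.

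Contractile genes are also expressed by pericytes, vascular smooth muscle and some fibroblasts. At least 2-fold below the other arrays on control replicate 2, as 5 of the 6 members were, lay 0 of 8 pericyte markers, 2 of 7 vascular smooth muscle markers and 7 of 11 fibroblast markers, against 12.1% of all genes. Pericyte markers were mostly dim on control replicate 1 already. Kcnj8 had 3.77 there, Higd1b 3.82, Mcam 4.08 and Heyl 4.33, below that array's median of 4.38. Such genes had little room to meet this rule, so their count does not show whether they went with the members. Rgs5, a pericyte marker, had 8.41, 7.78, 4.45 and 5.75, lowest on control replicate 1. Notch3 had 9.20, 8.08, 7.06 and 6.94, and Pdgfrb had 6.74, 6.62, 6.2 and 7.37. The summed signal of 8 measured pericyte markers was 741 to 1239 in BC alone and 318 to 443 in the control, with 5 of 8 at least 2-fold higher without overlap, against 4.78% of all genes, and 4 of 8 at least 2-fold apart from control replicate 1 alone, against 4.29%.

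The 7 vascular smooth muscle markers summed to 335 to 389 in BC alone, 303 on the first control array and 188 on the second. Of these, 1 was at least 2-fold higher without overlap, against 4.78% of all genes, and 0 were at least 2-fold apart from control replicate 1 alone, against 4.29%. Kcnmb1, a subunit of a calcium-activated potassium channel, had 5.30, 6.04, 5.21 and 3.24, and Itga8 had 5.77, 6.50, 6.39 and 4.55, both lowest on control replicate 2. The brightest of the list, Mustn1, Itga8 and Mrvi1, did not exceed 6.50 on any array, and Pln, phospholamban, lay between 3.92 and 4.27, below the median of each array. For fibroblasts, Col1a1 had 10.84, 10.91, 10.30 and 8.62, Col3a1 10.44, 10.57, 10.30 and 9.02, and Dcn 10.84, 11.16, 9.91 and 8.02. Postn, periostin, had 9.86, 9.84, 9.63 and 6.2, level on 3 arrays and far lower on control replicate 2, as the members were. The 11 fibroblast markers summed to 6983 to 7774 in BC alone, 4699 on the first control array and 1427 on the second, with 8 of 11 at least 2-fold higher without overlap, against 4.78% of all genes, and 5 of 11 at least 2-fold apart from control replicate 1 alone, against 4.29%. RMA gives no values of 0, so no marker was at 0, and the part of these cells in the members' values was not tested.

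Beside the members, the 8 genes with the most similar pattern were Tpm2, Krt14, Igfbp5, Sema5a, Krt5, Plekhb1, Stac2 and Htra1. Likeness was the root mean square distance over the 4 arrays between a gene's values and the median of the 6 members, each centred on its own mean. It was 0.064 for Tpm2, 0.149 for Krt14, 0.15 for Igfbp5, a binding protein of insulin-like growth factors, 0.163 for Krt5 and 0.213 for Htra1, a secreted protease. Among the members themselves it was 0.176 for Acta2, 0.304 for Mylk, 0.381 for Cnn1, 0.468 for Myh11, 0.515 for Actg2 and 1.42 for Oxtr. The other Oxtr probe set lay at 0.832. With 4 arrays, of which 1 stands apart, this likeness is mainly the level on control replicate 2.

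**Figure D5:**
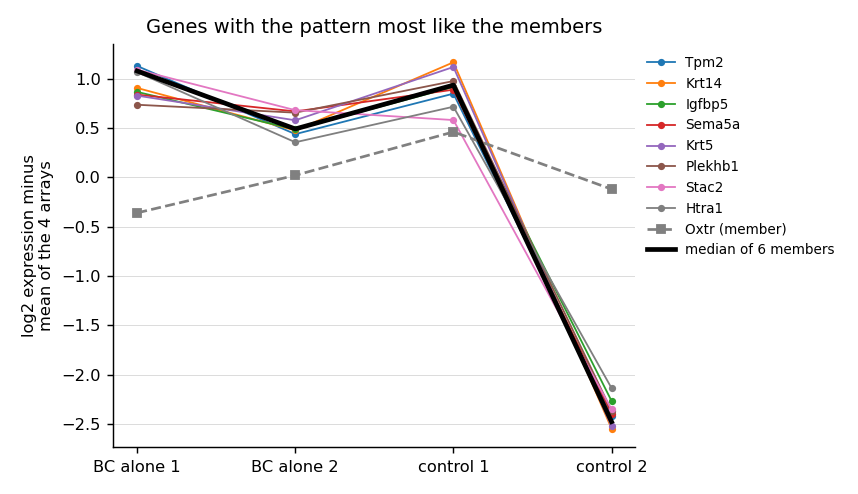
Log2 expression minus each gene's mean over the 4 arrays, for the 8 genes nearest to the members (thin lines), the median of the 6 members (thick black line) and the brightest probe set of Oxtr (grey dashed line). The members' median is 1.08, 0.49 and 0.93 on the first 3 arrays and -2.475 on control replicate 2, where that Oxtr set is at -0.12.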

How the data were processed

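Each of the 4 deposited columns belongs to 1 array and holds log2 expression values by probe set. According to the submitters' processing notes they were made by the authors using affy and its RMA method, with unnamed versions. RMA corrects background, normalises between arrays and summarises probes. Joint normalisation of the arrays, a genome build and detection calls were not given in the sources used here.

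Of 45141 probe sets, 28898 had 1 gene symbol in the platform annotation, 551 several and 15692 none. Through Entrez identifiers 28689 matched RefSeq, with 0 symbols updated. The probe set with the highest mean stood for each gene, with no filter on dim values.

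Groups were compared in limma 3.58.1 under R 4.3.3 (lmFit, eBayes, two-sided, Benjamini-Hochberg over 17097 genes, 2 residual and 3.51 prior degrees of freedom), tested on simulated data. A fold is 2 to the power of a log2 difference, and a linear signal 2 to the power of a log2 value. Alternatives were leaving out each array, a replicate block, 3 scalings, 2 probe set rules, a filter on dim genes, an intensity trend, robust variance and other fold thresholds.

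The members and lists were chosen with earlier results of these data known. Pathway genes named are the 4 of each list with the smallest p, with Myl9, Tpm2, Cald1, Lmod1, Srf, Myocd, Mrtfa, Actb and Actg1. Markers named are Krt5, Krt14 and Trp63 and the 3 brightest of other lists. Pln, Foxa1, Esr1, Prom1, Kcnmb1 and Postn were named outside that rule, after their values were seen. Egfr, Snai2, Krt15 and Vsnl1 are named as the basal markers not at least 2-fold below the other arrays on control replicate 2. Nearest genes are the 8 closest to the members' median and 2 per member. Endothelial, leukocyte and skeletal muscle markers were also listed.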

Additional observations from a re-analysis of the deposited data

How the results depend on the processing

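Control replicate 2 decided the direction of most members. Leaving out each array in turn, the members' median ran from -0.25 to 3.17, the count of members at least 2-fold different without overlap from 0 to 5, and the count of genes past the threshold in limma stayed at 0. The lowest and highest log2 differences in those fits were -0.095 and 3.645 for Acta2, -0.355 and 2.045 for Actg2, -0.14 and 3.91 for Mylk, -0.70 and 2.69 for Cnn1, -0.065 and 3.195 for Tpm2, -0.105 and 4.445 for Myl9, -0.065 and 2.225 for Myl12a, -0.13 and 1.52 for Mrtfa, -0.40 and 0.30 for Actc1 and -0.155 and 0.205 for Acta1. Myh11 and Oxtr kept their direction under all 13 alternatives, from 0.285 to 4.395 and from -0.63 to -0.05. The replicate block, intensity trend, robust variance and filter on dim genes leave a log2 difference unchanged, so they could not turn it. For Myh11 the probe set of largest interquartile range also gave the same 2.34.

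With the replicate block 108 genes passed in limma, and with an intensity trend 97, none of them a member, Myh11 having an adjusted p of 0.338. Under the block Myh11 (adjusted p = 0.0041), Myl9 (0.0098), Cald1 (0.0278) and Mylk (0.0394) passed. That fit had 1 residual degree of freedom and gave every gene the same standard error of 0.512. The numbers do not pair the arrays by the labels, and the differences between replicates 1 and 2 correlated at -0.018 between the groups over genes. The sign also turned for Actc1 after quantile normalization (0.146), median centring (0.015) and cyclic loess (0.136), for Actg1 (-0.315) and Actb (-0.756) after cyclic loess, and for Orai1 with the probe set of largest interquartile range (-0.04); the cause was not tested. Without detection calls, dim values such as those of Oxtr carry no statement on presence.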

Other observations

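Single members had other nearest neighbours over the 4 arrays. Nearest to Mylk was Il17b, a cytokine of the interleukin-17 family, with 8.97 and 8.79 in BC alone and 9.05 and 4.95 on control replicates 1 and 2, at a distance of 0.033. Mia, a small secreted protein, with 9.52, 9.25, 9.40 and 5.43 in the same order, was among the 2 nearest of Acta2, Myh11 and Mylk. Nearest to Myh11 was Myl9, at 0.178. Cnn1, with its gap between the BC alone arrays, was nearest to the cell cycle gene Ccnd2, which had 9.09 and 7.82 in BC alone and 9.23 and 5.80 in the control, at 0.036. The genes nearest to Actg2 were Plpp1 and Mrpl23, and those nearest to Oxtr were Ftsj1 and Guk1.

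At least 2-fold below the other arrays on control replicate 2 lay 1 of 9 endothelial, 0 of 8 leukocyte and 0 of 7 skeletal muscle markers, against 12.1% of all genes. Outside control replicate 2 the skeletal muscle markers lay between 3.17 and 4.90, around the array medians of 4.37 and 4.38. Ptprc and Itgam were as dim, while Cd68, Cd74 and Lyz2 were brighter. Dim genes had little room to meet this rule. At least 2-fold higher in BC alone without overlap were 3 of 9 endothelial markers, against 4.78% of all genes. Summed linear signals were 776 to 882 in BC alone and 558 to 571 in the control for the endothelial markers, 370 to 510 and 549 to 773 for the leukocyte markers, and 113 to 114 and 119 to 158 for the skeletal muscle markers. The 1 endothelial marker was Cdh5, the brightest of its list, with 8.38, 8.05, 7.48 and 6.25 in the array order of the report. Pecam1 had 7.63, 6.82, 7.17 and 7.14, and Cd74, the invariant chain of MHC class II, 5.99, 6.92, 8.36 and 7.25. Ckm, muscle creatine kinase, lay between 4.26 and 4.71.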
